A study of Mus musculus with 28 samples.

Results

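The step between 45 min and 2 h of lipopolysaccharide (LPS) was read in newly made RNA of mouse macrophages that carried an empty retroviral vector, as the 2 h library over the 45 min library. These are 2 of the 28 libraries of the series, with 1 library a side, so the step itself has no p-value. The table holds 36806 genes, of which 13804 were measured in the step, meaning at least 1 FPKM (fragments counted per kilobase of transcript, relative to the library's total) in either library and an OK status in both. The question is which genes begin, extend or end their response in this interval.

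Marrow cells of FVB/Hsd mice were grown into macrophages, used on day 7, after infection with retrovirus from Phoenix-ECO packaging cells and selection with puromycin. Those described first carried LMP, the empty vector, and received LPS at 10 ng/ml for 2 h or for 45 min. Around them in the same table stand LMP cells left untreated or given LPS for 4 h, and cells with sh1137, a hairpin against Wdr82, at the same 4 times. The times come from the sample titles, since the treatment notes name 4 h of LPS only. All 8 were unstranded libraries of RNA labelled with 4-thiouridine (4sU), a base analogue that marks RNA made in the 45 min before harvest. At 45 min of LPS the label thus covered the whole exposure, and at 2 h its last 45 min. The number of mice or cultures behind a library is not given in the sources used here, and a spread between cultures cannot be had from them.

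LPS is a component of the outer membrane of Gram-negative bacteria and is sensed by macrophages through Tlr4. Immediate early genes, many of them transcription factors of the Fos, Jun and Egr families, are transcribed first, without new protein synthesis, together with inhibitors that limit the response, such as the NF-kappaB inhibitor Nfkbia and the phosphatase Dusp1. Later genes often need newly made factors, chromatin remodelling or interferon beta, which the cells secrete and which acts back on them to turn on antiviral genes. RNA labelled over a short window follows changes in transcription more closely than total RNA does.

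In LMP cells, 1288 of 13804 genes were at least 2-fold higher at 2 h (9.33%) and 913 were at least 2-fold lower (6.61%). Ratios are log2 of (FPKM + 1) over (FPKM + 1), and the median over all measured genes was 0.05. Without small RNA, pseudogene, clone and predicted names, 10144 genes were left, called named genes below. Of these, 734 rose (7.24%) and 503 fell (4.96%). The deposited confidence bounds of the FPKM were wide, and they stood apart between the libraries for 60 genes that were higher (0.435%) and 23 that were lower (0.167%). Among named genes of at least 5 FPKM, those nearest to the 2-fold limit were Ifitm5, at 6.55 FPKM at 2 h against 2.77 at 45 min, just inside it, and Tab2, at 95.0 against 47.0, just outside. On the lower side, Dpp7 lay just inside, at 42.5 FPKM at 2 h against 85.9 at 45 min, and Rgs18 just outside, at 7.24 against 15.5.

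**Figure D1:**
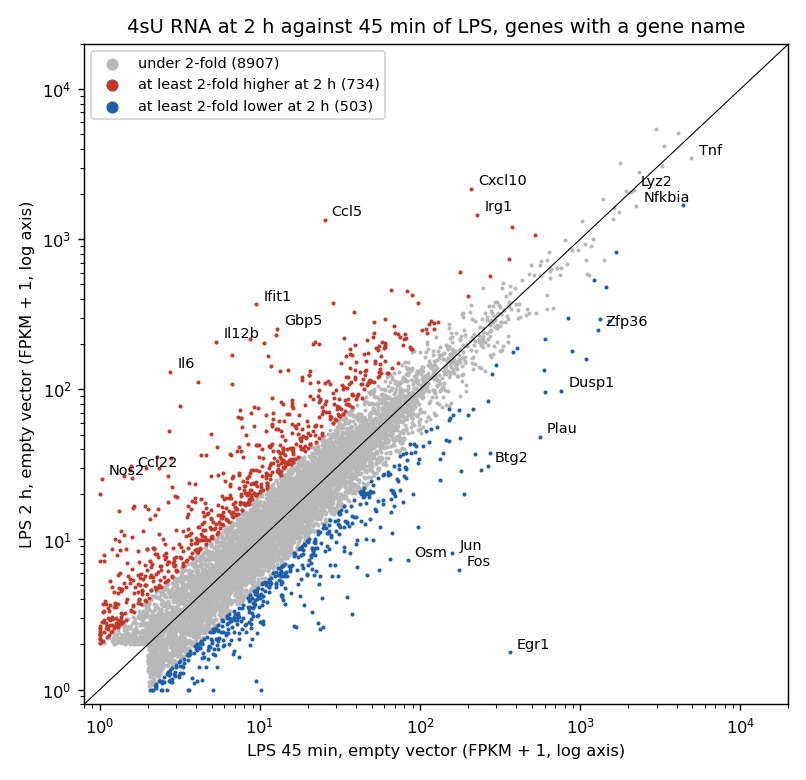
Level of each named gene at 2 h (vertical axis) against 45 min (horizontal axis) of LPS in LMP cells, both as FPKM + 1 on log axes, with 1 library per axis and 1 point per gene. The 734 genes in red were at least 2-fold higher at 2 h and the 503 in blue at least 2-fold lower, with Ccl5 and Il6 far above the diagonal and Egr1 and Fos far below it.

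The libraries were of similar complexity, with 12939 to 13799 genes at 1 FPKM or more among the 8. The tables hold no read counts. The spacing of the lowest values put the depth of the LMP 2 h library at 0.669 of that of the LMP 45 min library, and the range of all 8 at 0.669 to 1.58, and the part of depth in the results was not tested. Among macrophage markers, Lyz2, encoding lysozyme, had 2136 FPKM at 2 h and 2161 at 45 min, and Cd68 had 334 and 406. Csf1r had 226 and 353 FPKM, Itgam 57.2 and 79.6, and Fcgr1 23.4 and 25.5. Emr1 rose, with 224 FPKM at 2 h against 73.9 at 45 min, and Mertk fell, with 4.77 against 18.8. The measured markers of neutrophils, 7 of 13 in the list, summed to 51.9 FPKM at 2 h and 45.8 at 45 min, and those of dendritic cells, 7 of 12, to 94.2 and 102. Of 14 lymphocyte markers 2 were measured and 8 were at 0 in both libraries, and of 8 mast cell and basophil markers none was measured. Of 7 erythroid markers 2 were measured, at 15.5 FPKM in sum at 2 h and 20.5 at 45 min, and of 10 stromal markers 1, at 3.01 and 3.09. Wdr82 had 27.0 FPKM at 2 h and 23.8 at 45 min in LMP cells, and 11.8 and 11.7 in sh1137 cells. In bulk RNA, fewer cells of a kind and less RNA per cell cannot be told apart.

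The immediate early transcription factors fell together. Of 28 measured, 20 were at least 2-fold lower at 2 h and 1 was higher, with a median log2 ratio of -1.73, against 0.04 over all named genes. Egr1, a zinc finger factor induced by growth and stress signals, had 2.84 FPKM untreated, then 362, 0.772 and 2.19 after 45 min, 2 h and 4 h of LPS in LMP cells. It was thus under its untreated level by 2 h, and its log2 ratio over 45 min was -7.68, the lowest of all named genes of at least 5 FPKM. Fos (chr12:86814840-86818223, mm9), a subunit of the AP-1 factor, had 18.0, 175, 5.31 and 33.8 FPKM at the same 4 times, and its partner Jun had 79.0, 158, 7.09 and 63.1. Both were lowest at 2 h and higher again at 4 h. The locus of Jun holds 4 genes of the table and that of Egr1 2, and reads of overlapping genes cannot be told apart without strand. Less steep falls were those of Atf3, a repressor of inflammatory genes, with 294 FPKM at 2 h against 1328 at 45 min, of Ier3, with 36.8 against 271, and of Junb, with 299 against 834. Nr4a3, an orphan nuclear receptor named after its value was seen, was the member that rose, with 12.7 FPKM at 2 h against 1.06 at 45 min.

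Several MAP kinase phosphatases and the 3 measured genes of the Zfp36 family fell too. Of 18 measured RNA decay factors and MAP kinase phosphatases, 10 were at least 2-fold lower at 2 h and 0 higher (median log2 ratio -1.40). The decay factors Zc3h12a, Zc3h12c, Rc3h1 and Rc3h2, the Rc3h genes named after their values were seen, did not pass, with log2 ratios of 0.61, 0.57, 0.75 and 0.99. Zfp36, whose protein (tristetraprolin) binds AU-rich elements and speeds the decay of cytokine mRNAs, had 58.3 FPKM untreated, 1295 at 45 min, 249 at 2 h and 491 at 4 h. Dusp1, which inactivates p38 and Jnk kinases, had 21.2, 761, 96.7 and 106 FPKM. Both stayed above their untreated level at every LPS time. Dusp6 and Spry2, which restrain Erk signalling, ran another course: Dusp6 had 77.8, 39.7, 5.55 and 54.7 FPKM and Spry2 21.0, 15.2, 1.64 and 7.58, so both were already under the untreated level at 45 min. The sequences at the start sites of Zfp36 and Dusp1 are shown because they carry elements known from immediate early genes. They run 250 bases before to 50 bases after the start site, 5′ to 3′, from RefSeq on GRCm38.p6. The capitals mark a CArG box, bound by serum response factor, in Zfp36 (chr7:28379179-28379478 on the minus strand), and the cyclic AMP response element TGACGTCA in Dusp1 (chr17:26508423-26508722 on the minus strand).
Zfp36: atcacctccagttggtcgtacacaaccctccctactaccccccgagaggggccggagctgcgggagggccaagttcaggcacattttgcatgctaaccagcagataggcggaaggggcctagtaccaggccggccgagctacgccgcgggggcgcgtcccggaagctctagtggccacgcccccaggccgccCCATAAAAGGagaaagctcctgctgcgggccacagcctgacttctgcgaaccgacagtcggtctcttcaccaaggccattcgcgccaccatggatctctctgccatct
Dusp1: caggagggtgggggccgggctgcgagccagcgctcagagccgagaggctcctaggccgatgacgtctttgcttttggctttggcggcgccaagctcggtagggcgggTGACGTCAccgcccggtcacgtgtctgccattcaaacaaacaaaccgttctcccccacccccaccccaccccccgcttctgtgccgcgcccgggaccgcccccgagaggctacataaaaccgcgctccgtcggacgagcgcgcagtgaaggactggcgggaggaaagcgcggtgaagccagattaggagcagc
The CArG box lies at bases -58 to -49 from the start site of Zfp36 and the cyclic AMP response element at -143 to -136 of Dusp1. These genes were chosen for display after the matches were seen.

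Members of the NF-kappaB system moved in both directions. Nfkb1, which encodes the p105 precursor of p50, had 32.3, 50.7, 280 and 429 FPKM in untreated LMP cells and at 45 min, 2 h and 4 h, and Rel, the c-Rel subunit, 20.5, 72.0, 233 and 304. Both rose between 45 min and 2 h, as did Nfkb2, Traf1, Irak3 and Otud1, so that 6 of 20 members were higher. The inhibitor Nfkbid fell, with 33.4 FPKM at 2 h against 132 at 45 min, and Tnfaip3, the ubiquitin-editing enzyme A20, had 825 against 1676. Nfkbia, the main inhibitor, had 1674 FPKM at 2 h and 2241 at 45 min, a difference under 2-fold.

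Among 26 cytokines, 14 rose and 6 fell, with a median log2 ratio of 1.31. Il6, a fever and acute phase cytokine, had 0.0931, 1.75, 130 and 1165 FPKM untreated and after 45 min, 2 h and 4 h in LMP cells, and Il12b, the p40 subunit of interleukins 12 and 23, 0, 4.36, 207 and 310. Both went on rising to 4 h. Il27 had 76.3 FPKM at 2 h against 2.18 at 45 min, in a locus with 3 genes, and Il1b 601 against 177. Tnf, an early inflammatory cytokine, went the other way, with 3467 FPKM at 2 h and 4956 at 45 min, under 2-fold. Osm, oncostatin M, fell to 6.28 FPKM at 2 h, against 82.6 at 45 min, and Tnfsf9, the ligand of 4-1BB, to 94.7 against 604. The cytokine list thus held both steep rises and clear falls.

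Chemokines rose more often than they fell. Of 19 measured, 9 rose (47.4%) and 1 fell (5.26%), against 7.24% and 4.96% of all named genes. Ccl5 (chr11:83339280-83344020, mm9), which attracts T cells and monocytes, had 3.32, 24.3, 1341 and 6578 FPKM untreated, at 45 min, 2 h and 4 h, and its log2 ratio of 5.73 between 2 h and 45 min was the highest of the named genes of at least 5 FPKM. The chemokines Ccl22 and Ccl17, ligands of Ccr4, had 27.8 and 19.0 FPKM at 2 h. At 45 min Ccl22 had 0.543 FPKM and Ccl17 was listed at 0. Their neighbour Cx3cl1 had 24.5 FPKM at 2 h against 0.599 at 45 min. The neutrophil attractants were divided. Cxcl2 fell to 1698 FPKM at 2 h, against 4380 at 45 min, and Cxcl1 had 2062 against 2073. Cxcl3 and Cxcl5, named after their values were seen, rose, with 165 and 2.06 FPKM at 2 h against 10.2 and 0.184 at 45 min. Ccl3 and Ccl4, with 3204 and 5398 FPKM at 2 h against 1781 and 2997 at 45 min, were higher by less than 2-fold. They are related genes, and a sharing of reads between them was not tested.

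Antiviral genes of the interferon response rose together. Ifnb1, interferon beta, was listed at 0 in untreated LMP cells and had 5.79 FPKM at 45 min, 25.3 at 2 h and 7.05 at 4 h. It was thus highest at 2 h. Irf7, a factor that amplifies the response, had 30.2, 31.3, 149 and 792 FPKM. In the list of interferons, IRF and STAT factors 6 of 20 rose and 0 fell. Of 57 measured antiviral interferon-stimulated genes, 43 rose and 0 fell, with a median log2 ratio of 1.61. Ifit1, which binds foreign RNA, had 6.67, 8.49, 368 and 2071 FPKM untreated, at 45 min, 2 h and 4 h, and Mx1, an antiviral GTPase, 11.7, 9.55, 203 and 2647. Both were within 2-fold of untreated cells at 45 min and far above them at 2 h. Rsad2 was not measured, since its status in the table was not OK. Of 18 measured interferon-inducible GTPases, which attack vacuoles that hold microbes, 15 rose and 0 fell (median 2.59). Gbp5 had 252 FPKM at 2 h against 11.8 at 45 min, and Irgm2 71.4 against 6.57. Many of these families have near-identical copies, and values of single members are uncertain to that extent.

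The start regions of Ifit1, Cxcl10 and Il6 are given because the capitals show the elements known to bind factors of the NF-kappaB and interferon arms. They mark the core of the interferon-stimulated response element, GAAA, any 2 bases and GAAA, on either strand, in Ifit1 (chr19:34640639-34640938 on the plus strand) and Cxcl10 (chr5:92348840-92349139 on the minus strand), and the kappaB consensus in Cxcl10 and in Il6 (chr5:30012864-30013163 on the plus strand). As before, each runs 5′ to 3′ from 250 bases before to 50 after the start site in RefSeq on GRCm38.p6, and the genes were chosen after the matches were seen.
Ifit1: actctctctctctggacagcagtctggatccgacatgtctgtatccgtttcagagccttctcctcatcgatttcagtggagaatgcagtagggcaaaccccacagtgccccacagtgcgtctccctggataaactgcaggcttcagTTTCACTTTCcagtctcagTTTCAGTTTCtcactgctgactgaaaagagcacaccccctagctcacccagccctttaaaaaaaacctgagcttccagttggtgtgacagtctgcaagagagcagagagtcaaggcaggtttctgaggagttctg
Cxcl10: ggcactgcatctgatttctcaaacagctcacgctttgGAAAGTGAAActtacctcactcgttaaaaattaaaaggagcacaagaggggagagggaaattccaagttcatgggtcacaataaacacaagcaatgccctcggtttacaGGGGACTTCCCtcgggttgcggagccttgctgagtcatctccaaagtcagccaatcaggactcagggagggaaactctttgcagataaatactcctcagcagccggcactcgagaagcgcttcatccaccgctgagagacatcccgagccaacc
Il6: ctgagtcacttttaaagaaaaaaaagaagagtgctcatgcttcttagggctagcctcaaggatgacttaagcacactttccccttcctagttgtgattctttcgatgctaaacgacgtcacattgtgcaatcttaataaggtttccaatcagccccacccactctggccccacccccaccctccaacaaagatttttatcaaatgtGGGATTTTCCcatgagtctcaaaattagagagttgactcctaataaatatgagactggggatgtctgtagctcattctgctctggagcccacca
Ifit1 has 2 response element cores, at bases -104 to -95 and -85 to -76. Cxcl10, a chemokine for T cells, has 1 core at -213 to -204 and overlapping kappaB matches between -104 and -94. Il6 has a kappaB match at -44 to -35. Cxcl10 lies outside the rule by which the genes here were named. It had 2.95, 207, 2175 and 9156 FPKM untreated, at 45 min, 2 h and 4 h, in a locus shared by 4 genes.

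Over the gene classes, windows of 300 bases matched 558 of 729 symbols that rose, 373 of 501 that fell and 7696 of 10104 named symbols measured. A response element core stood in 60 of 717 windows of genes that rose (8.37%), in 16 of 524 of genes that fell (3.05%) and in 321 of 9845 of all named genes measured (3.26%), against 3.44% of the 32851 windows of the whole table. It stood in 21 of 53 windows of the antiviral genes (39.6%) and in 9 of 11 of the GTPases (81.8%). Of the named genes in these lists, windows matched 43 of 56 antiviral and 10 of 17 GTPase symbols, and 21 of 28 immediate early ones. These are thus shares of windows and not of all list members. The kappaB consensus was in 8.51% of the windows of genes that rose, 6.11% of those that fell, 7.11% of all named and 5.805% of the whole table. For the immediate early factors it was in 5 of 27 (18.5%), as was the CArG box. That box was in 1.26% of windows of genes that rose, 1.72% of those that fell, 1.31% of all named and 1.63% of the table. The cyclic AMP response element was in 2.09% of windows of genes that rose, 4.39% of those that fell, 3.22% of all named and 1.79% of the table. The AP-1 site TGANTCA was in 8.23% of windows of genes that rose, 7.06% of those that fell, 5.17% of all named and 7.81% of the table, and the C/EBP core (TTGC, any 2 bases and AA) in 10.3%, 9.73%, 8.52% and 10.8%. TATAAA stood 20 to 40 bases before the start in 1.95%, 2.48%, 1.07% and 1.99%. Both strands were read but for TATAAA, and matches of different motifs may overlap. A match is a run of letters and says nothing on binding in these cells.

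Effector genes of activated macrophages rose in part, 14 of 34, while 4 fell. Nos2 (chr11:78734289-78773756, mm9), which makes nitric oxide, was listed at 0 in untreated LMP cells and had 0.0307, 24.3 and 422 FPKM at 45 min, 2 h and 4 h. Saa3, an acute phase protein, had 110 FPKM at 2 h against 3.10 at 45 min, and Irg1, whose product makes itaconate, 1452 against 226. The urokinase gene Plau (chr14:21655884-21662610, mm9) fell to 47.3 FPKM at 2 h, against 559 at 45 min, and to 8.67 at 4 h, far under its 335 in untreated cells. Feedback regulators of cytokine receptors were 3 of 14 that rose: Socs1, an inhibitor of JAK kinases, had 33.8 FPKM at 2 h against 1.77 at 45 min, the ubiquitin ligase Peli1 375 against 27.7, and Cish 35.7 against 3.63. Socs3 had 471 against 245, under 2-fold.

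Receptors and survival genes showed a rise of part of their members. In the toll-like receptor list 12 of 32 rose (37.5%) and 2 fell (6.25%), against 7.24% and 4.96% of all named genes. Tlr9, the sensor of bacterial DNA, had 22.3 FPKM at 2 h against 2.95 at 45 min, and Tlr1 34.6 against 6.81, while Tlr13, a sensor of bacterial ribosomal RNA named after its value was seen, fell to 44.2 against 150. Ticam2, an adaptor of Tlr4, had 48.4 FPKM at 2 h against 7.20. Of 26 survival and apoptosis regulators 13 rose (50.0%) and 4 fell (15.4%). The death receptor Fas had 35.6 FPKM at 2 h against 3.30 at 45 min, and Cd274 (PD-L1) 51.4 against 9.94, whereas Mcl1 had 350 against 675, just under the limit.

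Macrophage genes and cell cycle genes had medians under that of all named genes. Of 36 macrophage receptors and lineage factors 6 rose (16.7%) and 3 fell (8.33%), with a median of -0.35. Of all named genes 7.24% rose and 4.96% fell, so both kinds of call were more frequent in this list. Those that fell included the chemokine receptor Ccr1, with 3.39 FPKM at 2 h against 14.6 at 45 min, and the apoptotic cell receptor Mertk, with 4.77 against 18.8. Cebpd, a factor of inflammatory gene induction, rose to 80.3 FPKM at 2 h, against 14.8 at 45 min. Of 29 cell cycle genes 3 fell (10.3%) and 0 rose (median -0.52): Cdc6, Ccnd1 and E2f2. Ccnd1, cyclin D1, had 158, 113, 43.6 and 9.68 FPKM untreated, at 45 min, 2 h and 4 h. Of 13 p53 targets 6 fell (46.2%) and 0 rose. But Btg2, which had 29.9 FPKM at 2 h against 263 at 45 min, is also an immediate early gene and is held by that list too. The kinase Plk2 and the p53 ubiquitin ligase Mdm2 had 159 and 189 FPKM at 2 h against 1085 and 403 at 45 min, and Cdkn1a, the best known p53 target, had 379 against 302.

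Some lists had few members that passed 2-fold. No glycolysis or hypoxia gene of 22 passed 2-fold (median -0.03), and Aldoa, a glycolytic enzyme, had 240 FPKM at 2 h and 248 at 45 min. Of 20 sterol and LXR genes 2 fell (10.0%, against 4.96% of all named genes): Insig1 and Stard4, both regulators of cholesterol handling. That list had a median of -0.26. Of 23 stress response genes and chaperones 2 fell (8.70%), Ddit3 and Hspa8, and of 8 small RNA host transcripts 1 (12.5%), Snhg9. Among 26 termination and elongation factors, the class to which Wdr82 belongs, 1 rose and 1 fell (3.85% each, median -0.06). These shares were under the 7.24% and 4.96% of all named genes. Ell fell to 5.44 FPKM at 2 h, against 17.5 at 45 min. Setd1b, a histone H3 lysine 4 methyltransferase, had 27.8 FPKM at 2 h against 7.79 at 45 min, in a locus shared by 8 genes.

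**Figure D2:**
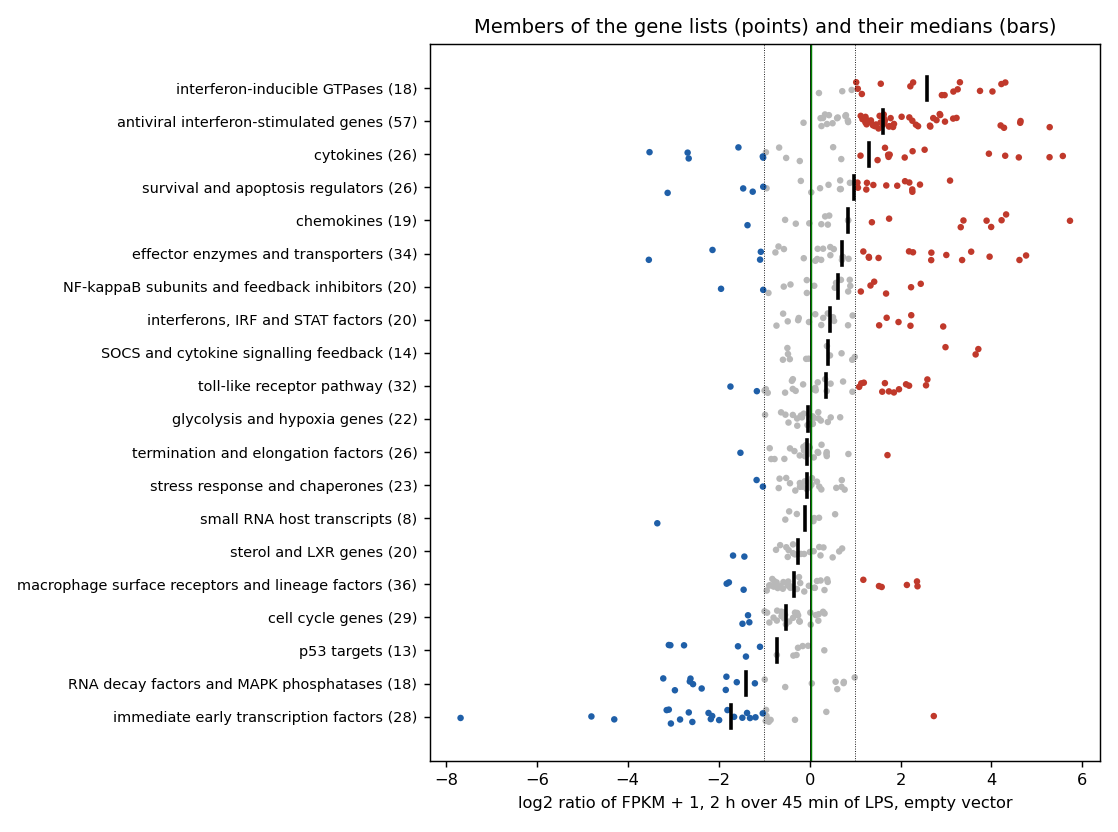
Log2 ratio of FPKM + 1, 2 h over 45 min of LPS in LMP cells (horizontal axis), for each measured member (points) of 20 gene lists (rows, number of measured members in parentheses), with the list median as a black bar, the median of all named genes as a green line and dotted lines at 2-fold. Interferon-inducible GTPases and antiviral genes lie to the right (medians 2.59 and 1.61), and immediate early factors and RNA decay factors with phosphatases to the left (medians -1.73 and -1.40).

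Genes that crossed from off to on were counted as started when under 1 FPKM at 45 min and at least 3 FPKM at 2 h, and the reverse as stopped. Over all measured genes 230 started (1.67%) and 199 stopped (1.44%). Of named genes, 67 started (0.66%) and 33 stopped (0.325%). Beside Nos2 and the 3 chemokines above, the started genes of highest level were Edn1 (endothelin 1), with 29.9 FPKM at 2 h against 0.568 at 45 min, and Tnfsf15, a cytokine of the TNF family, with 29.1 against 0.953. Lpar1, a receptor of lysophosphatidic acid, had 15.6 against 0.645, and the kinase Src 15.6 against 0.903. Tgtp2 and Cxcl11 also started, in loci shared by 12 and 4 genes. Among the stopped genes was Egr1. Egr3, of the same family, had 0.148 FPKM at 2 h against 8.52 at 45 min, and F3, tissue factor, had 0.973 against 7.67. Gab3, an adaptor of the Csf1 receptor pathway, had 0.654 FPKM at 2 h against 6.37 at 45 min and 6.11 in untreated cells. Slco2b1, an organic anion transporter, had 3.91, 4.46, 0.860 and 0.0728 FPKM untreated, at 45 min, 2 h and 4 h. Gab3 and Slco2b1 were thus near their untreated level at 45 min and under it at 2 h, unlike the Egr genes, which had been induced.

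The same step in sh1137 cells uses other libraries and shares none with the LMP pair. There, 1345 of 14533 measured genes were higher at 2 h (9.25%) and 1344 lower (9.25%), and of 10500 named genes 816 (7.77%) and 746 (7.1%). Of the named genes that rose in LMP cells, 488 of 733 were at least 2-fold higher in sh1137 cells too (66.6%), against 7.52% of all named genes, and 694 lay above 0. Of those that fell, 344 of 503 were at least 2-fold lower (68.4%), against 6.62%, and 483 lay below 0. Of the started genes 55 of 67 were 2-fold higher in sh1137 cells, and of the stopped genes 24 of 33 were 2-fold lower. Egr1 had 2.61, 443, 0.869 and 3.38 FPKM in sh1137 cells untreated, at 45 min, 2 h and 4 h, and Ifit1 had 5.74, 7.68, 633 and 1898. For both genes the highest time was the same in the 2 vectors.

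**Figure D3:**
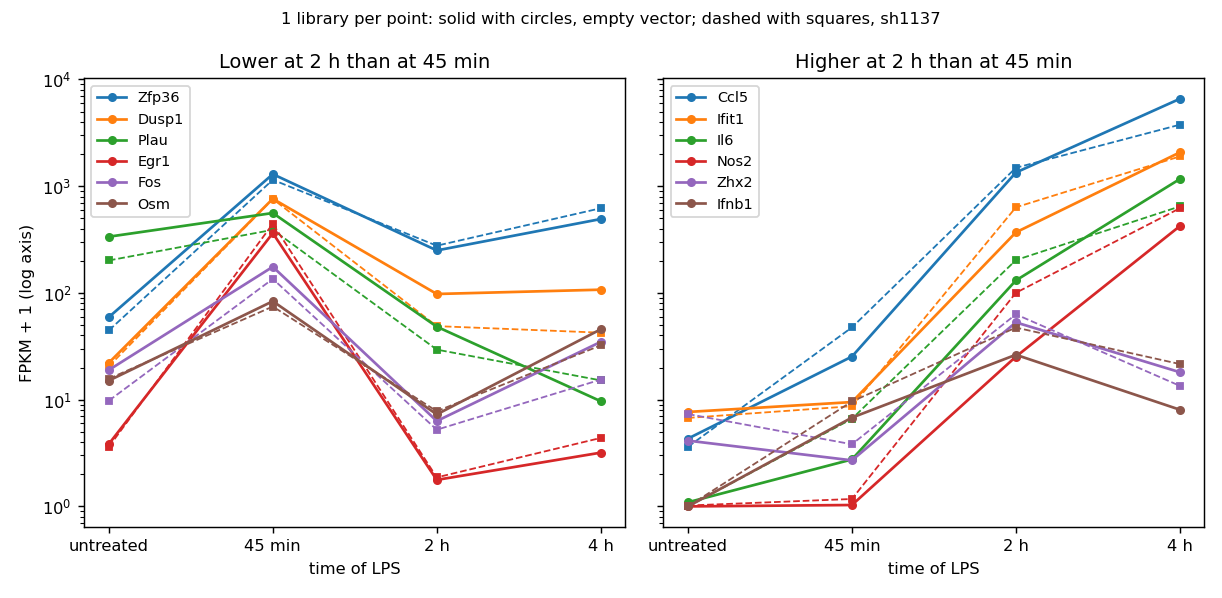
FPKM + 1 on a log axis (vertical) in untreated cells and after 45 min, 2 h and 4 h of LPS (horizontal) for 6 genes lower at 2 h than at 45 min (left) and 6 genes higher (right), with 1 library per point, solid lines for LMP and dashed lines for sh1137. Egr1, Fos and Osm reached their lowest LPS level at 2 h, Plau kept falling to 4 h, and Zhx2 and Ifnb1 were highest at 2 h in both vectors.

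Steps differed in size between the vectors for some genes. Among 7972 named genes of at least 5 FPKM in LMP cells, 422 were higher at 2 h in both vectors, 294 lower in both, and 261 had steps that differed by 2-fold or more. The difference, LMP minus sh1137, had a median of -0.00 and an SD of 0.42 over genes. The step of the antiviral genes was smaller in LMP cells, with a median of 1.61 against 2.53 in sh1137 cells, and 55 of 57 members had the larger step in sh1137 cells, against 49.6% of all named genes. For the GTPases the medians were 2.59 and 3.69, and 16 of 18 were larger in sh1137 cells. Cmpk2, an antiviral kinase, had 215 FPKM at 2 h against 7.70 at 45 min in LMP cells, and 456 against 4.84 in sh1137 cells. Cytokines and chemokines had medians of 1.31 and 0.85 in LMP cells and of 0.93 and 0.51 in sh1137 cells. With 1 library per condition these differences were not tested. In 3 genes of that set the calls were opposite: Csf2, Chic2 and Snhg9, of which Csf2 and Chic2 were named after their values were seen.

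**Figure D4:**
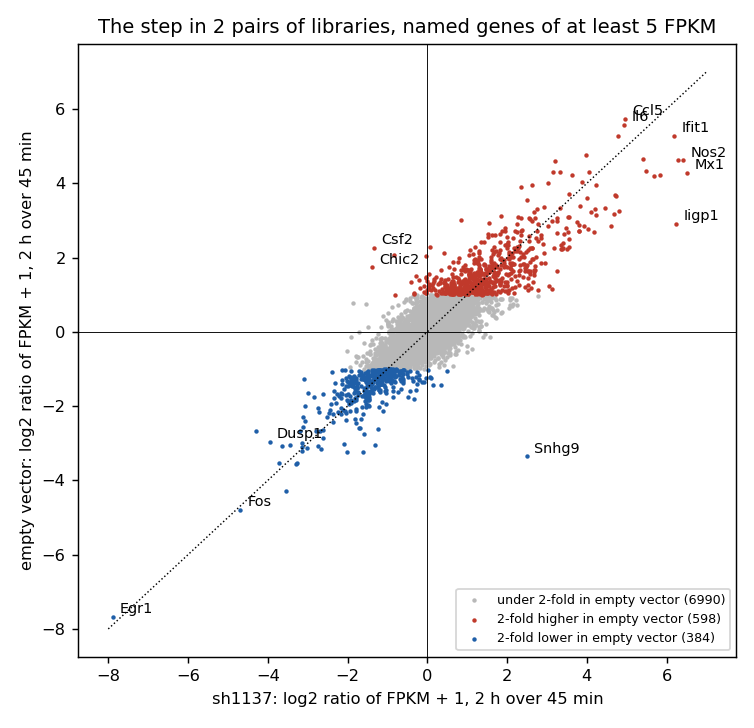
Log2 ratio of FPKM + 1, 2 h over 45 min of LPS, in LMP cells (vertical axis) against sh1137 cells (horizontal axis) for 7972 named genes of at least 5 FPKM, 1 point per gene, coloured by the call in LMP cells, with a dotted line where both are equal. Most coloured points keep their sign in sh1137 cells, antiviral genes such as Mx1 and Ifit1 lie to the right of the line, and Snhg9, Csf2 and Chic2 lie on the opposite side.

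A step common to both vectors was tested with limma over the 8 libraries, with time and vector as terms and 3 residual degrees of freedom. Its error is how far the vectors differ in their course, not a spread between cultures. Of 15054 genes, 1634 were higher at 2 h (10.9%) and 1252 lower (8.32%) at a Benjamini-Hochberg adjusted p under 0.05. Without the untreated libraries the counts were 945 and 638, and with the 45 min and 2 h libraries only, 318 and 196. The fit holds the LMP libraries whose step chose many of the genes named here, so its p-values for them are not independent of that choice. Egr1 had a mean step of -7.79 (SE 0.17, limma adjusted p = 0.000257), Fos of -4.75 (SE 0.25, limma adjusted p = 0.00232), Ifit1 of 5.74 (SE 0.26, limma adjusted p = 0.00173) and Il6 of 5.25 (SE 0.50, limma adjusted p = 0.00615). Peli1 had a mean step of 3.64 (SE 0.14, limma adjusted p = 0.00152) and Nfkb1 of 2.61 (SE 0.12, limma adjusted p = 0.00173). Tnf, with a mean step of -0.71 (SE 0.18, limma adjusted p = 0.0533), did not pass. By list, limma called 50 of 56 antiviral genes higher and 0 lower, 13 of 18 GTPases higher, and 22 of 28 immediate early factors lower. It called 12 of 29 cell cycle genes lower and 0 higher, and 11 of 36 macrophage genes lower and 5 higher. In both lists more were called lower than fell 2-fold. Of 10138 named genes in the fit, 1324 were called higher and 1017 lower.

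The genes that fell were split by whether they had been induced at 45 min in other sets. Control cells with a scrambled hairpin were given LPS for 45 min in the Pnuts and the Set1a and Set1b experiments, each with its own untreated library and each stranded. In the Pnuts set 84 of 503 named genes that fell were at least 2-fold above untreated (16.7%), against 3.89% of all named genes, and in the Set1a and Set1b set 79 of 502 (15.7%), against 3.79%. Of the 503, 72 were at least 2-fold above untreated at 45 min in both (14.3%), and 431 were not. Among all 10144 named genes, 58 that rose and 170 that neither rose nor fell were up in both as well. Read in sh1137 cells, the 72 had a median log2 ratio over untreated of 2.55 after 45 min, of 0.38 after 2 h and of 0.64 after 4 h. The 431 had 0.13, -1.07 and -1.10. At 2 h, 240 of those 431 were at least 2-fold under untreated sh1137 cells (55.7%), against 5.90% of all named genes. The 3 ratios share the untreated sh1137 library. In polyA RNA of LMP cells, from a separate set, 177 of the 431 were at least 2-fold lower after 4 h of LPS (41.1%), against 7.92% of all named genes.

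The 431 were not all alike at 45 min, where their log2 ratios over untreated sh1137 cells had quartiles of -0.24 and 0.35. Some were higher at 45 min than untreated in LMP cells: Jun had 79.0 FPKM untreated and 158 at 45 min. Myc had 58.8 and 144, and C5ar1 147 and 378. These and the following examples of the 431, all expressed without LPS, were chosen after their values were seen. Dab2, an endocytic adaptor, had 425, 604, 215 and 122 FPKM in untreated LMP cells and at 45 min, 2 h and 4 h, in a locus with 3 genes. Pmp22, a membrane protein of myelin, had 203, 298, 143 and 60.1 FPKM. Irf2bp2, a repressor that partners Irf2, had 104, 94.0, 40.7 and 11.7 FPKM in a locus with 2 genes. Tlr13 had 114, 150, 44.2 and 60.3 FPKM. Rgs2, which shortens signals of G protein-coupled receptors, dipped at 2 h, with 198, 240, 28.1 and 113 FPKM. By the naming rule, Id2, an inhibitor of basic helix-loop-helix factors, dipped too, with 354, 597, 135 and 315 FPKM in LMP cells and 387, 742, 178 and 403 in sh1137 cells.

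**Figure D5:**
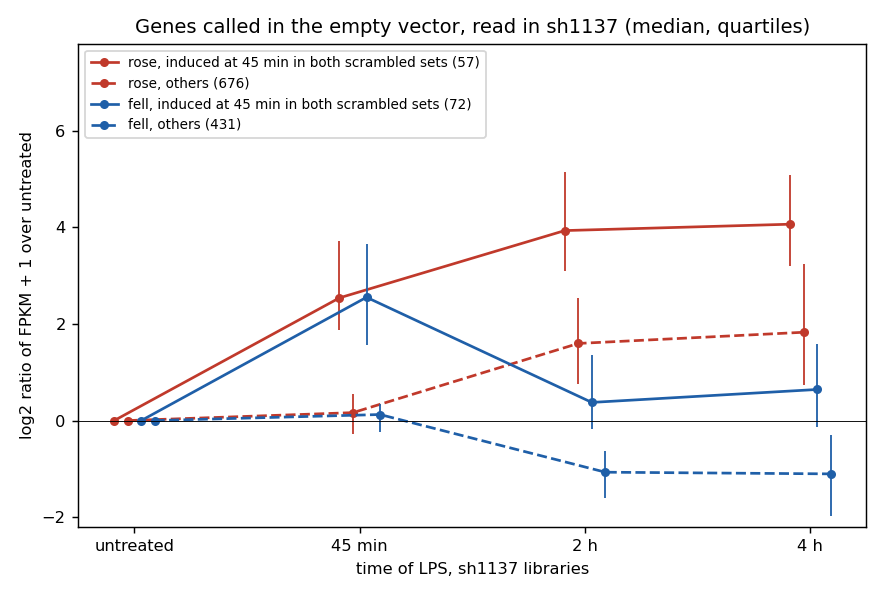
Median log2 ratio of FPKM + 1 over untreated cells (vertical axis) at 45 min, 2 h and 4 h of LPS (horizontal axis) in sh1137 libraries for named genes called in LMP cells, split by whether both scrambled sets had them at least 2-fold up at 45 min, with bars from the lower to the upper quartile over genes. The 72 induced genes that fell returned to 0.38 at 2 h, the other 431 that fell lay at -1.07, and the other 676 that rose reached 1.60.

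Most genes that rose were not 2-fold up at 45 min in the scrambled sets. Of 734, 58 were at least 2-fold above untreated at 45 min in both of these sets (7.90%). Among all 10144 named genes, 72 that fell and 170 that did neither were up in both too. Taken singly, the Pnuts set had 73 up (9.95%) and the Set1a and Set1b set 74 (10.1%). All named genes had 3.89% and 3.79% up in these sets, so genes up at 45 min were more frequent among those that rose. Genes up in 1 set only are thus among the other 676. The other 676 had median log2 ratios over untreated sh1137 cells of 0.16, 1.60 and 1.83 after 45 min, 2 h and 4 h. In sh1137 cells, 65.3% of the genes that rose in LMP cells were highest at 4 h and 28.8% at 2 h, against 38.2% and 16.9% of all named genes. In polyA RNA of LMP cells, 4 h of LPS gave 480 of 731 at least 2-fold above untreated (65.7%), against 17.2% of all named genes. Zhx2 and Cish are examples that were highest at 2 h in both vectors, and such genes were not counted. The transcriptional repressor Zhx2 (chr15:57526220-57671388, mm9) had 3.13, 1.70, 52.0 and 17.1 FPKM untreated, at 45 min, 2 h and 4 h in LMP cells, in a locus with 3 genes, and 6.33, 2.82, 62.0 and 12.5 in sh1137 cells. Cish had 0.0938, 3.63, 35.7 and 10.5 FPKM in LMP cells and 0.432, 7.29, 50.0 and 11.4 in sh1137 cells.

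A set between the 2 times gave a mixed picture of the early genes. At 1 h 11.6% of the named genes that rose and 5.77% of those that fell were at least 2-fold above untreated, against 2.74% of all. In stranded libraries of LMP cells after 1 h of LPS, the immediate early list had a median log2 ratio over untreated of 0.17, while at 45 min it had 1.54 in the unstranded LMP libraries and 1.07 and 1.39 in the scrambled sets. Egr1 had 5.20 FPKM at 1 h against 26.8 untreated, Fos 92.7 against 92.9 and Dusp1 78.7 against 45.4. In the scrambled Pnuts set Egr1 had 306 FPKM at 45 min against 3.13 untreated. In the untreated unstranded LMP library and the untreated Set1a and Set1b control Egr1 had 2.84 and 9.21 FPKM, so its untreated level was higher in the 1 h set than in these 3 libraries of 4sU RNA. Zfp36 and Tnf were still up at 1 h, with 539 and 4611 FPKM against 106 and 304. Sets were scaled separately and differ in library type, so these ratios were not tested against each other.

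Position in the genome added a few regularities. Of named genes with another named gene within 50 kb, the nearest had also risen for 22.2% of the genes that rose, against 6.53% of all, and had also fallen for 11.5% of those that fell, against 4.04%. Runs of neighbours that all rose were Gbp5, Gbp7, Gbp3, Gbp1 and Gbp2 at chr3:142159864-142300972 (mm9), Ccl22, Cx3cl1 and Ccl17 at chr8:97269490-97335935, and 6 genes from Ms4a4c to Ms4a6d at chr19:11479260-11679339. Cxcl9, Art3, Cxcl10 and Cxcl11 rose at chr5:92750357-92843654, where Art3, Cxcl10 and Cxcl11 share 1 locus in the table. Such runs hold gene copies and overlapping loci, which share reads. Among genes with a locus of their own, loci that fell had a median length of 21.5 kb and those that rose 18.3 kb, against 19.5 kb for all. Loci over 100 kb made up 12.5% of those that fell, 7.26% of those that rose and 7.33% of all, and the median log2 step of genes over 100 kb was -0.13 in LMP cells and -0.20 in sh1137 cells.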

How the data were processed

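RNA was sequenced in 28 libraries with 1 library per condition, and 5 of the 6 deposited tables were used. The authors deposited FPKM values with confidence bounds and a status per gene, as the file headers name them. The submitters' processing notes name TopHat 1.3.1, Cufflinks 2.1.1, Cuffdiff 2.1.1 and the build mm9. Which annotation was used, what level the bounds have and how libraries were scaled is not given in the sources used here.

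Ratios were computed within a table with a pseudocount of 1 FPKM, which understates the change of low genes. Genes needed 1 FPKM in either library and an OK status in both, and at least 2-fold was called. No p was given to a single pair of libraries. The step common to both vectors was fitted with limma 3.58.1 in R 4.3.3 on log2 values of the 8 unstranded libraries, with a trend and Benjamini-Hochberg adjustment over all genes tested. Its p-values measure only the spread between these libraries. Other steps used Python 3.11.15, pandas 2.3.3 and numpy 2.4.6.

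Named in the text are the 15 highest and 15 lowest ratios of genes of at least 5 FPKM, the 10 started and 10 stopped genes of highest level, and of each of 26 lists the 6 members of highest level and the 4 of largest ratio. The step, its lists and the rule were chosen with earlier results of these data known. Genes outside the rule, also those at the 2-fold limit, in runs of neighbours and named as list members called, were chosen after their values were seen. Symbols were matched to RefSeq start regions (GRCm38.p6), and no coordinate was converted between builds. Genes that share a locus or are near-identical copies may share reads, and in unstranded libraries antisense transcripts cannot be told apart.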

Additional observations from a re-analysis of the deposited data

Results flagged for a closer look

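Among 218 genes followed one by one, 4 had a 2 h over 45 min step called in LMP cells and of the opposite sign in sh1137 cells. With 1 library per condition the difference was not tested. Csf2 and Chic2 were added to the 218 because their calls were opposite in the 2 vectors, so the count of 4 rests partly on that choice. Over all named genes, 39 of 733 that rose in LMP cells lay below 0 in sh1137 cells, and 20 of 503 that fell lay above 0. Csf2, the growth factor GM-CSF, had a log2 step of 2.27 in LMP cells (17.1 FPKM at 2 h against 2.76 at 45 min) and of -1.33 in sh1137 cells (10.3 against 27.2). Chic2 had a step of 1.74 in LMP cells (18.5 FPKM at 2 h against 4.83 at 45 min) and of -1.38 in sh1137 cells (7.75 against 21.8). The small RNA host transcript Snhg9 had a step of -3.35 in LMP cells, where it was listed at 0 at 2 h and had 9.20 FPKM at 45 min, and of 2.49 in sh1137 cells, where it had 4.63 FPKM at 2 h and was listed at 0 at 45 min. Its locus holds 4 genes. Alas2, the first enzyme of heme synthesis in red cell precursors, had a step of 1.04 in LMP cells (2.95 FPKM at 2 h against 0.920 at 45 min) and of -0.66 in sh1137 cells (1.69 against 3.24).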

How the results depend on the processing

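In LMP cells 1288 genes were higher and 913 lower at 2 h. With a pseudocount of 0.1 FPKM 1744 were higher and 1384 lower, and with 5 FPKM 606 and 363. Without small RNA, pseudogene, clone and predicted names 734 and 503 were left, and with genes alone in their locus 584 and 445. At 3-fold there were 530 and 340, at 1.5-fold, a setting chosen after seeing the data, 2610 and 2076, and at 2-fold with bounds that did not overlap 59 and 23. Among calls, 58.5% were higher, against 53.8% after centring on the median and 50.0% in sh1137 cells. Started and stopped genes numbered 67 and 33 without the excluded names. Of 218 genes followed, 4 had a step called in LMP cells and of the opposite sign in sh1137 cells: Alas2 (-0.66), Snhg9 (2.49), Csf2 (-1.33) and Chic2 (-1.38). The causes were not tested. Csf2 and Chic2 had been added to the 218 because of their opposite calls.

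By limma 1634 genes were higher and 1252 lower. These counts became 945 and 638 without the untreated libraries, 318 and 196 with the 45 min and 2 h libraries only, and 393 and 286 without a filter on low values. They were 1045 and 819 with genes alone in their locus and 794 and 604 with a mean step of at least 2-fold. Of the genes named in the report, Il1b, Cxcl2, Tnfaip3, Spry2, Src, Stard4, Cdc6 and E2f2 passed in the fit over 8 libraries. They also passed without the 4 h libraries, but not without the untreated libraries. The limma fit compares the times within each vector. No further pairing by replicate number was possible because each condition has 1 library. Depth is known only relative to the LMP 45 min library, which limits what genes near 1 FPKM show.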
